A study of Homo sapiens with 16 samples.

Results

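The 10 keratins described here are KRT4, KRT7, KRT8, KRT13, KRT15, KRT17, KRT18, KRT19, KRT80 and KRT81, taken by name from the 26364 genes of both count tables. They were chosen with earlier results of these data known, so counts of keratins called beside shares of all genes are descriptions only. Bulk RNA-seq was performed in the endometrial adenocarcinoma line Ishikawa and the breast carcinoma line T-47D, both human. Both lines were deprived of hormone in phenol red-free medium with charcoal-stripped serum and then received 10 nM 17β-estradiol (E2) for 0 h (vehicle), 2 h, 4 h or 8 h. Each line and time point had 2 replicates, which gave 16 libraries, and no allele or transgene separates the groups. The labels do not say whether replicates were separate cultures, so every p-value measures only the spread between these libraries. Each tissue is represented by 1 line, so tissue, line and handling cannot be told apart.

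Keratins are the intermediate filament proteins of epithelial cells. A filament is built from a type I and a type II keratin that pair with each other, so a cell needs partners of both types. KRT8 (type II) and KRT18 (type I) are the founding pair of simple epithelium, and KRT7 (type II) and KRT19 (type I) join them in ducts and glands such as those of the breast and the endometrium. KRT4 (type II) and KRT13 (type I) are the pair of the upper layers of moist stratified epithelium, whereas KRT15 and KRT17 (both type I) are known from basal cells and from hair follicle or stressed epithelium, respectively. KRT80 is a type II keratin of many epithelia and KRT81 is a type II hair keratin. E2 acts through the estrogen receptor ESR1, a transcription factor that both lines express.

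The Ishikawa libraries held 41177912 to 58918642 counts, of which the 10 keratins took 0.202% to 0.268%, and the T-47D libraries held 41223813 to 64148903, of which they took 0.893% to 1.182%. Of counts from 1 to 10, 71.2% to 74.6% were even, so a count need not be 1 independent fragment. Counting intervals take every count as independent, so they may be too narrow, and they leave out the spread between libraries. Each line was checked against markers of its tissue. The summed level of 7 endometrial markers was 764 to 840 CPM (counts scaled to a common library size with TMM factors) in Ishikawa cells and 2.38 to 4.00 CPM in T-47D cells, where EMX2 and SOX17 were at 0 (PAX2 was the member not over 1 CPM in Ishikawa cells). The 6 breast luminal markers summed to 2855 to 3638 CPM in T-47D cells, with ANKRD30A as the only one not over 1 CPM, and to 216 to 292 CPM in Ishikawa cells, where GATA3, SPDEF and ANKRD30A were not over 1 CPM. The 4 leukocyte markers summed to at most 4.06 CPM in any library. The 3 endothelial markers summed to 5.06 to 8.36 CPM in Ishikawa cells, where VWF was the only one over 1 CPM, and to at most 0.214 CPM in T-47D cells. The 6 fibroblast markers summed to 154 to 277 CPM in Ishikawa cells and 77.7 to 103 CPM in T-47D cells, with only COL1A1, COL3A1 or LUM over 1 CPM. The 6 basal and myoepithelial markers summed to 62.4 to 95.3 CPM in Ishikawa cells, where KRT14 was the only one not over 1 CPM, and to 14.97 to 28.01 CPM in T-47D cells, where TP63, KRT5 and KRT14 were not over 1 CPM. The 4 h and 8 h Ishikawa libraries did not separate by their time labels. The median absolute log2 difference across genes was 0.0887 between 4 h replicate 1 and 8 h replicate 2 and 0.0905 between 4 h replicate 2 and 8 h replicate 1, against 0.106 between the 4 h replicates and 0.0945 between the 8 h replicates. Replicates 1 of 4 h and 8 h differed by 0.114 and replicates 2 by 0.101. In T-47D cells the 4 h replicates were nearest (0.0699). However, 4 h replicate 1 and 8 h replicate 2 (0.0893) were closer than the 8 h replicates (0.0962). The other T-47D pairs of 4 h with 8 h libraries lay between 0.0999 and 0.109. The labels were kept, and the calls of the 10 keratins in Ishikawa cells at 4 h and 8 h are given also with the 4 late Ishikawa libraries as 1 group. The gene lists are given by the time labels alone.

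The genes lie in the human keratin clusters, with the type II members on chromosome 12 and the type I members other than KRT18 on chromosome 17. On GRCh37 (hg19), the type I cluster holds KRT13 (39657233 to 39661957), KRT15 (39669997 to 39678781) and KRT19 (39679869 to 39684560) side by side on the minus strand of chromosome 17, with KRT17 further along (39775694 to 39781094). On chromosome 12, KRT8 (53290971 to 53343738, minus strand) overlaps the start of KRT18 (53342655 to 53346690, plus strand). KRT81 (52679697 to 52685318, minus strand) lies inside KRT86 (52643084 to 52702947, plus strand), whose annotated start also overlaps KRT7 (52626304 to 52645970, plus strand). KRT80 (52562780 to 52585798) and KRT4 (53200333 to 53207900) are on the minus strand of the same chromosome. Libraries were directional, but the strand setting of the counting is not given in the sources used here, so reads from the KRT8 and KRT18 overlap and from KRT81 and KRT86 cannot be told apart with certainty. KRT7 and KRT86 overlap on the same strand, so a strand setting would not separate reads from that overlap. The 9 keratin pseudogene and antisense symbols in the tables held at most 6 counts in any library.

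RefSeq promoter sequence was at hand for 2 members, KRT8 and KRT4. KRT8 has 18 annotated transcripts and KRT4 has 5, and 1 start site of each is covered. Which start site the measured RNA used was not tested. The 250 bases before each start site are shown because KRT8 is the most abundant type II keratin of both lines and its RNA responded to E2 in T-47D cells, whereas KRT4 passed no test of response. Capitals mark GGTCA, a single arm of the estrogen response element; the coordinates are chr12:52926470-52926719 for KRT8 and chr12:52814117-52814366 for KRT4, both on the minus strand of GRCh38.p14.
KRT8: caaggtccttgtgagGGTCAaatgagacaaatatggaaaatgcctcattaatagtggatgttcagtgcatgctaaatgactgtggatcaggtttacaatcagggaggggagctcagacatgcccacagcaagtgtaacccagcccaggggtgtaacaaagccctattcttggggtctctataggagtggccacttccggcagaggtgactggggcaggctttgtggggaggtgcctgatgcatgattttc
KRT4: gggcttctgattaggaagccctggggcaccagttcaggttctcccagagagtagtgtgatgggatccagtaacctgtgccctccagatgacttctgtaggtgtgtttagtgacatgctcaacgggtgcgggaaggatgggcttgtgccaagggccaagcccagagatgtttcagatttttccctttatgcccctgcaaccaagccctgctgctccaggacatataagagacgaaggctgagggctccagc
The KRT8 window held 1 GGTCA, which begins at position -235 from the start site, and the KRT4 window held none on either strand. GGTCA on either strand was found in 37.4% of all 35116 RefSeq promoter windows of 300 bases (250 before and 50 after the start). Neither window held the full element (GGTCA and TGACC with 3 bases between them, in 0.057% of windows, each of which also counts as a GGTCA match), the AP-1 motif TGANTCA (7.71%), the GC box GGGCGG (45%) or the TATA box TATAAA (11.5%). Matches were sought as exact letters on both strands, and they describe the sequence only.

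At 0 h the keratin profiles of the lines differed in every member. The comparison of T-47D with Ishikawa cells called all 10 keratins at an adjusted p under 0.05 (edgeR's quasi-likelihood test, Benjamini-Hochberg over the 17090 genes tested in all 16 libraries), 8 of them higher in T-47D cells and 2 lower. Over all genes tested, 39.5% were called higher and 42.4% lower in T-47D cells. A call in this comparison was thus common among all genes and is not particular to the keratins. KRT19 was 181 and 184 CPM in the Ishikawa libraries and 3500 and 3341 CPM in the T-47D libraries, a log2 difference of 4.23 (standard error 0.07, adjusted p = 1.52e-21 from edgeR). KRT7 was 22.6 and 24.3 CPM against 255 and 240 CPM, a log2 difference of 3.40 (standard error 0.07). The founding pair was also higher in T-47D cells, by 1.43 on the log2 scale for KRT8 (standard error 0.05) and 1.32 for KRT18 (standard error 0.05). The replicates of the lines did not overlap for any of these 4 keratins of simple and ductal epithelium. How many of all genes showed no such overlap was not counted.

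KRT17 ran the other way. It was 29.1 and 32.6 CPM in Ishikawa cells and 1.09 and 0.940 CPM in T-47D cells, a log2 difference of -4.92 (standard error 0.19, adjusted p = 1.41e-15 from edgeR). KRT13 had only 19 and 12 counts in the Ishikawa libraries and 3 and 2 in the T-47D libraries, a log2 difference of -2.40 (standard error 0.62, adjusted p = 0.00141). KRT15 was higher in T-47D cells by 4.48 (standard error 0.22), at 7.46 and 8.61 CPM against 0.298 and 0.418 CPM. KRT4 had no count in either Ishikawa library and 132 and 104 counts in T-47D cells. Against an assumed floor of 3 counts over the Ishikawa group (0.0316 CPM), this was 89.1-fold higher. Counts need not be independent, so the value depends on that floor and is not a firm lower bound. KRT81 was higher by 1.83 (standard error 0.35) and KRT80 by 0.32 (standard error 0.10, adjusted p = 0.00714). The KRT80 call was lost without T-47D replicate 2 at 0 h, with an adjusted p of 0.0655.

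Levels of different keratins were compared per length, as CPM divided by the kilobases of annotated exon. In Ishikawa cells at 0 h, KRT8 (210 ± 0.749 CPM per kb, SD, n = 2) and KRT18 (177 ± 5.85) led, followed by KRT19 (78.1 ± 1.15), KRT80 (72.8 ± 1.69), KRT17 (10.3 ± 0.835) and KRT7 (5.86 ± 0.310). KRT81, KRT13, KRT15 and KRT4 followed at 0.197, 0.113, 0.0600 and 0 CPM per kb. The lower replicate of KRT81 (0.141, beside 0.254) was next to the higher one of KRT13 (0.139, beside 0.0861), so these neighbours did not differ beyond their spread. In T-47D cells, KRT19 led at 1464 ± 47.95, followed by KRT8 (565 ± 22.5), KRT18 (441 ± 10.3), KRT80 (90.6 ± 5.34) and KRT7 (61.9 ± 2.74). KRT15, KRT4, KRT81, KRT17 and KRT13 closed the order at 1.35, 0.977, 0.705, 0.338 and 0.0204 CPM per kb, and no neighbours of this order overlapped between replicates. With the longest transcript as the length, KRT7 (152) stood above KRT80 (102) in T-47D cells, and the order of Ishikawa cells was the same.

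**Figure D1:**
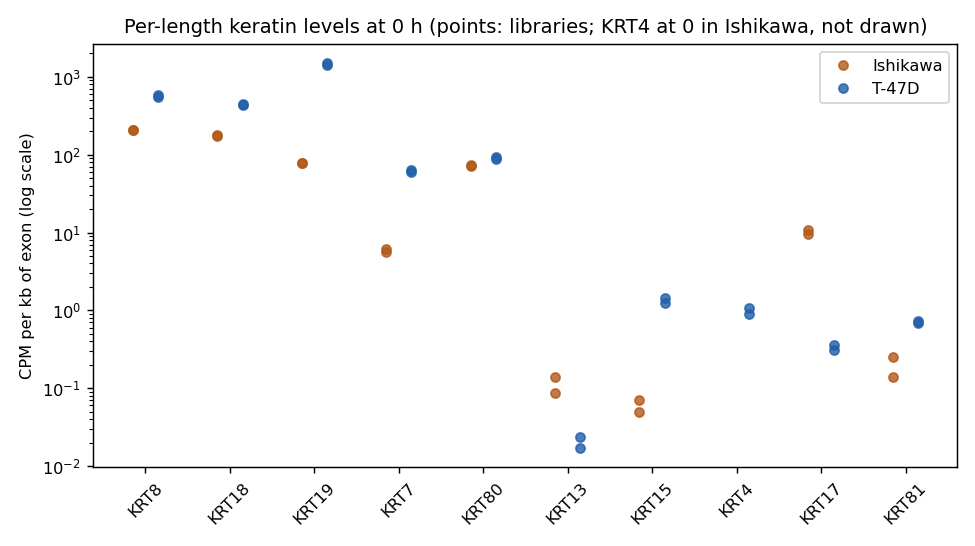
Per-length keratin levels at 0 h, as CPM per kb of exon on a log axis, with 1 point per library (2 per line) in Ishikawa (orange) and T-47D (blue) cells. KRT19 spans the range from 78.1 in Ishikawa to 1464 in T-47D cells, KRT17 and KRT13 are the members with higher points in Ishikawa cells, and KRT4 is at 0 in Ishikawa cells and is not drawn there.

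In T-47D cells treated with E2, the simple epithelial keratins KRT8, KRT18 and KRT19 and the stratified keratins KRT13 and KRT15 rose, and KRT7 and KRT80 fell. These 7 of the 10 keratins were called at each of 2, 4 and 8 h against 0 h (5 higher and 2 lower). The 10 were chosen with earlier results of these data known, so this count is a description and not a test. Among the 15594 genes tested in this line, the 2 h comparison called 4.9% higher and 4.4% lower, the 4 h comparison 11.1% and 10.4%, and the 8 h comparison 15.4% and 14.3%. KRT4, KRT17 and KRT81 were tested and passed at no time point. The 3 comparisons share their 0 h libraries, so their values are given side by side. Some genes listed as markers of other cell types fell too. Of the 4 fibroblast markers tested 3 fell at 8 h (median log2 fold change -0.57), and of the 4 basal and myoepithelial markers tested 1 fell (median -0.63). What they contribute to the keratin values was not tested. The libraries came from 1 cell line, so these markers are not a count of fibroblasts or myoepithelial cells. In bulk libraries, fewer cells with a transcript and less RNA per cell cannot be told apart.

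KRT8 was 3998 and 3779 CPM without E2, 4888 and 4927 after 2 h, 5048 and 5006 after 4 h, and 5829 and 5714 after 8 h. All 6 treated libraries were above both 0 h libraries, and the 8 h libraries were the highest. In log2 terms KRT8 rose by 0.33, 0.37 and 0.57 after 2, 4 and 8 h (standard error 0.03 at each), with an adjusted p of 3.08e-11 at 8 h from edgeR. Its partner KRT18 was 1374 and 1330 CPM without E2, 1817 and 1858 after 2 h, 1786 and 1831 after 4 h, and 1644 and 1570 after 8 h. KRT18 was thus above its 0 h range at every time point and lower at 8 h than at 2 h. In log2 terms it rose by 0.44, 0.41 and 0.25 at 2, 4 and 8 h (standard error 0.03 at each).

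KRT19, the type I keratin with no tail domain, was 3500 and 3341 CPM without E2, 4485 and 4795 after 2 h, 4293 and 4408 after 4 h, and 4213 and 3986 after 8 h. Its treated libraries also lay above both 0 h libraries. The log2 fold change was 0.43, 0.34 and 0.26 at 2, 4 and 8 h (standard error 0.03 at each, adjusted p = 1.14e-05 at 8 h). KRT7, the type II keratin of ducts and glands, went the other way, from 255 and 240 CPM at 0 h to 215 and 216 after 2 h, 199 and 193 after 4 h, and 164 and 149 after 8 h. Each later time point was below the one before it in both replicates. KRT7 thus fell by 0.21, 0.34 and 0.66 on the log2 scale after 2, 4 and 8 h (standard error 0.05 at each), and the call at 2 h was lost in 3 of the 8 fits that left out 1 library, those without 0 h replicate 1 (adjusted p = 0.121), 2 h replicate 1 (0.123) or 2 h replicate 2 (0.103). KRT80 was 379 and 412 CPM without E2, 335 and 330 after 2 h, 285 and 290 after 4 h, and 274 and 278 after 8 h, log2 fold changes of -0.26, -0.47 and -0.52 (standard error 0.04 at each).

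KRT13 had the largest fitted fold change of the 10 keratins. The T-47D libraries held 3 and 2 counts of it at 0 h, 68 and 65 after 2 h, 152 and 148 after 4 h, and 194 and 166 after 8 h, or 0.0693 and 0.0495 CPM at 0 h and 3.98 and 3.39 CPM at 8 h. Both libraries of each time point were above those of the time point before. The ratio to 0 h over summed counts, scaled for library size, was 25.3 at 2 h (95% counting interval 10.6 to 79.1), 44.4 at 4 h (18.8 to 138) and 61.7 at 8 h (26.2 to 191). These intervals take every count as independent and may be too narrow. The fitted log2 fold changes were 4.60, 5.42 and 5.89 (standard errors 0.40, 0.36 and 0.35, adjusted p = 6.55e-10 at 8 h from edgeR), and they rest on the 5 counts at 0 h. Its level at 8 h remained low, at 1.27 CPM per kb, below KRT15 in the same libraries.

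KRT15 was 7.46 and 8.61 CPM without E2, 23.6 and 21.4 after 2 h, 18.5 and 24.5 after 4 h, and 19.6 and 18.99 after 8 h. All 6 treated libraries were above both 0 h libraries. The log2 fold change was 1.48 (standard error 0.12), 1.41 (0.12) and 1.27 (0.12) at 2, 4 and 8 h, with an adjusted p of 8.92e-08 at 2 h. KRT4, the stratified partner of KRT13, was 3.05 and 2.57 CPM without E2, 2.96 and 4.03 after 2 h, 3.37 in both after 4 h, and 2.99 and 3.25 after 8 h. Its log2 fold change of 0.15 at 8 h had a standard error of 0.18 (adjusted p = 0.594), and the 2 h and 8 h ranges overlapped the 0 h range. KRT17, at 0.841 to 1.23 CPM over the 8 libraries, had log2 fold changes of -0.15, 0.18 and -0.14 (standard errors 0.28, 0.27 and 0.28). KRT81 was 1.41 and 1.31 CPM without E2 and 0.759 and 1.00 after 8 h, which did not pass (log2 fold change -0.63, standard error 0.27, adjusted p = 0.0902).

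**Figure D2:**
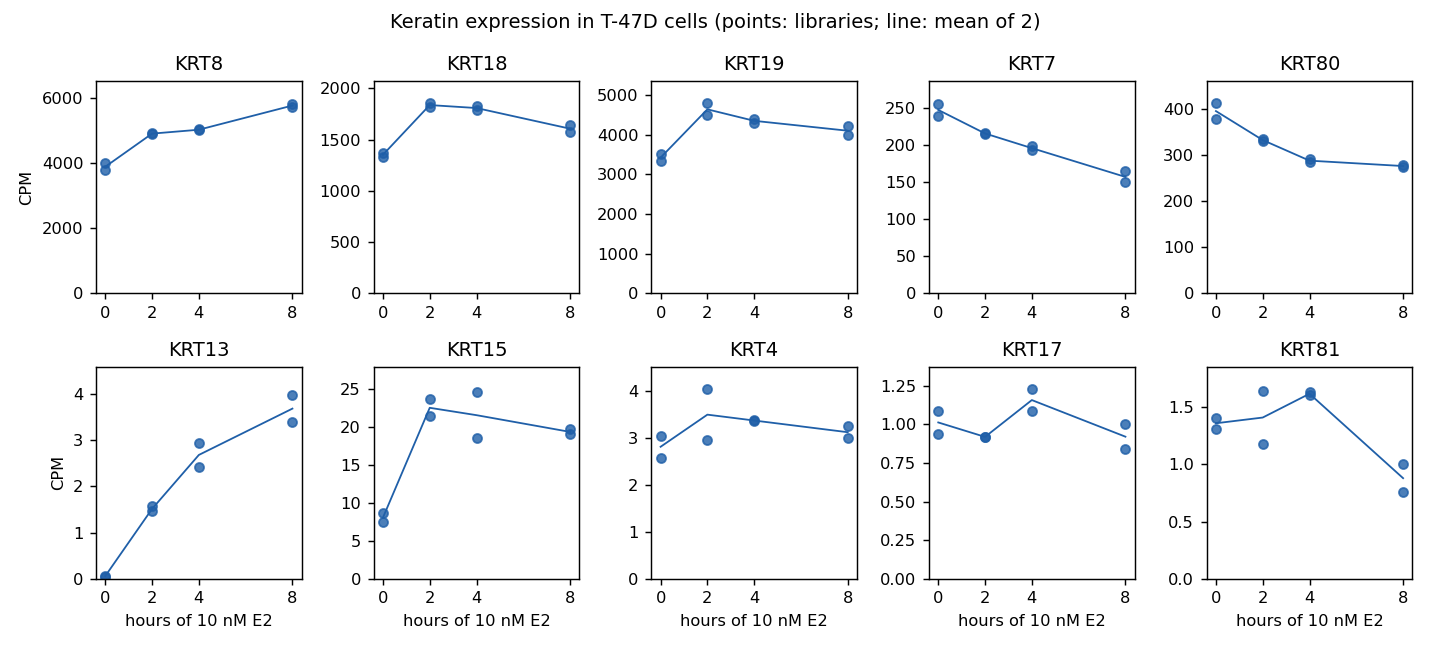
CPM of the 10 keratins in T-47D cells against hours of 10 nM E2, with 1 point per library and a line through the mean of 2; each panel has its own axis from 0. KRT8 climbs to 5829 and 5714 CPM at 8 h, KRT18 and KRT19 are highest at 2 h, KRT7 and KRT80 go down, KRT13 leaves a 0 h level of 3 and 2 counts, and KRT4, KRT17 and KRT81 were not called at any time point.

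The change after 2 h was tested gene by gene, by comparing 8 h with 2 h in T-47D cells. Keratins were not tested against each other. The comparison was chosen after the values were seen, so its calls describe a pattern already noticed. It called 6 of the 10 keratins, against 16.8% of all genes tested in either direction. KRT8 rose by a further 0.24 (standard error 0.03) on the log2 scale and KRT13 by 1.29 (standard error 0.20). KRT18 fell by 0.18 (standard error 0.03) and KRT19 by 0.17 (standard error 0.03), so both were nearer to their 0 h level at 8 h. KRT7 fell by a further 0.45 (standard error 0.05) and KRT80 by 0.26 (standard error 0.04). The KRT19 call was lost without 2 h replicate 2 (adjusted p = 0.0802). KRT15 had a log2 difference of -0.21 (standard error 0.11, adjusted p = 0.219) and was not called.

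In Ishikawa cells, fewer keratins passed and most of those that did went down. KRT7, KRT17, KRT18 and KRT80 fell at 4 h and at 8 h, and KRT13 rose at 4 h. At 2 h, 0 of the 9 keratins tested were called by edgeR; KRT18 and KRT13 had an unadjusted p under 0.05 (0.00284 and 0.0194), and DESeq2 called KRT18. Of the 15787 genes tested, the 2 h comparison called 2.61% higher and 1.74% lower, the 4 h comparison 7.66% and 6.6%, and the 8 h comparison 12% and 10.1%. KRT4 held 0 to 2 counts in every library and was removed by the filter on low counts. With the 4 h and 8 h libraries as 1 group, 6 keratins were called, the 5 above and KRT8. The log2 fold changes were then -0.42 for KRT7 (adjusted p = 0.000742 from edgeR), -0.49 for KRT17 (0.00432), -0.35 for KRT18 (5.20e-05), -0.50 for KRT80 (0.00127) and 1.26 for KRT13 (0.0262). Some genes listed as markers of other cell types fell in the same comparisons by the time labels, in libraries that also came from 1 cell line. Of the 3 fibroblast markers tested 2 fell at 4 h and at 8 h (median log2 fold change -0.56 and -0.60), and of the 5 basal and myoepithelial markers 2 fell at each (median -0.26 and -0.30). KRT5, itself a keratin, was among the basal markers that fell at 4 h and at 8 h, and TP63 was among those at 8 h. The part of these markers in the keratin results was not tested.

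KRT18 was 530 and 555 CPM without E2, 470 and 468 after 2 h, 415 and 434 after 4 h, and 445 and 411 after 8 h. All 6 treated libraries were below both 0 h libraries. The log2 fold change was -0.20 at 2 h (standard error 0.06, adjusted p = 0.0597) and -0.35 at both 4 h and 8 h (standard error 0.06, adjusted p = 0.000695 and 0.000600 from edgeR). KRT8 was 1448 and 1441 CPM without E2, 1386 and 1374 after 2 h, 1248 and 1321 after 4 h, and 1373 and 1197 after 8 h, below 0 h in every treated library. Its log2 fold change was -0.16 at 4 h (standard error 0.06, adjusted p = 0.0831) and -0.17 at 8 h (standard error 0.06, adjusted p = 0.0514), which did not pass. The 8 h change was called by DESeq2 (adjusted p = 0.0370), with at least 10 counts required in every library (0.0427), without a filter on low counts (0.00302) and in 3 fits without 1 library, and with the 4 late libraries as 1 group (-0.17, adjusted p = 0.0201). KRT19 ranged from 162 to 195 CPM over the 8 libraries, with log2 fold changes of 0.09, -0.02 and -0.04 (standard error 0.07 at each), and its 0 h values of 181 and 184 lay inside the 8 h range.

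KRT7 was 22.6 and 24.3 CPM without E2, 20.8 and 21.8 after 2 h, 17.4 and 17.0 after 4 h, and 19 and 16.3 after 8 h. On the log2 scale KRT7 fell by 0.44 at 4 h (standard error 0.09, adjusted p = 0.00506) and by 0.41 at 8 h (standard error 0.09, adjusted p = 0.00546). KRT80 was 312 and 323 CPM without E2, 303 and 304 after 2 h, 194 and 246 after 4 h, and 264 and 194 after 8 h. The late libraries of KRT80 fell into a lower pair (4 h replicate 1 and 8 h replicate 2) and a higher pair that cut across the time labels, as the libraries did over all genes. Its log2 fold change was -0.52 at 4 h and -0.48 at 8 h (standard error 0.11 at each), and -0.50 with the late libraries as 1 group; DESeq2 did not call the 8 h change (adjusted p = 0.0616). KRT17 was 29.1 and 32.6 CPM without E2, 29.4 and 29.6 after 2 h, 19.2 and 24.1 after 4 h, and 25.9 and 18.2 after 8 h. KRT17 had the same higher and lower late libraries as KRT80, with log2 fold changes of -0.50 at 4 h (standard error 0.14, adjusted p = 0.0221) and -0.48 at 8 h (standard error 0.13, adjusted p = 0.0182).

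These Ishikawa calls depend on single libraries. Without 0 h replicate 2, 1 keratin (KRT18) was called at 4 h and 1 at 8 h. Without 4 h replicate 1, 2 were called at 4 h, and without 8 h replicate 2, 1 was called at 8 h. KRT18 kept its call at 4 h and 8 h in each of these fits, and no called keratin changed direction in any of them.

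Of the stratified keratins, KRT13 had 19 and 12 counts at 0 h in Ishikawa cells, 37 and 35 after 2 h, 37 and 37 after 4 h, and 29 and 42 after 8 h. The treated libraries were all above the 0 h libraries in CPM, at 0.485 to 0.933 against 0.404 and 0.251. Its log2 fold change was 1.16 at 2 h (standard error 0.44, adjusted p = 0.184), 1.43 at 4 h (standard error 0.44, adjusted p = 0.0421) and 1.08 at 8 h (standard error 0.44, adjusted p = 0.0955), and the 4 h call was lost in 6 of the 8 fits that left out a library. KRT15 and KRT81 held 10 to 27 counts per library. Their log2 fold changes lay between -0.74 and 0.34 with standard errors of 0.46 to 0.53, and none passed.

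**Figure D3:**
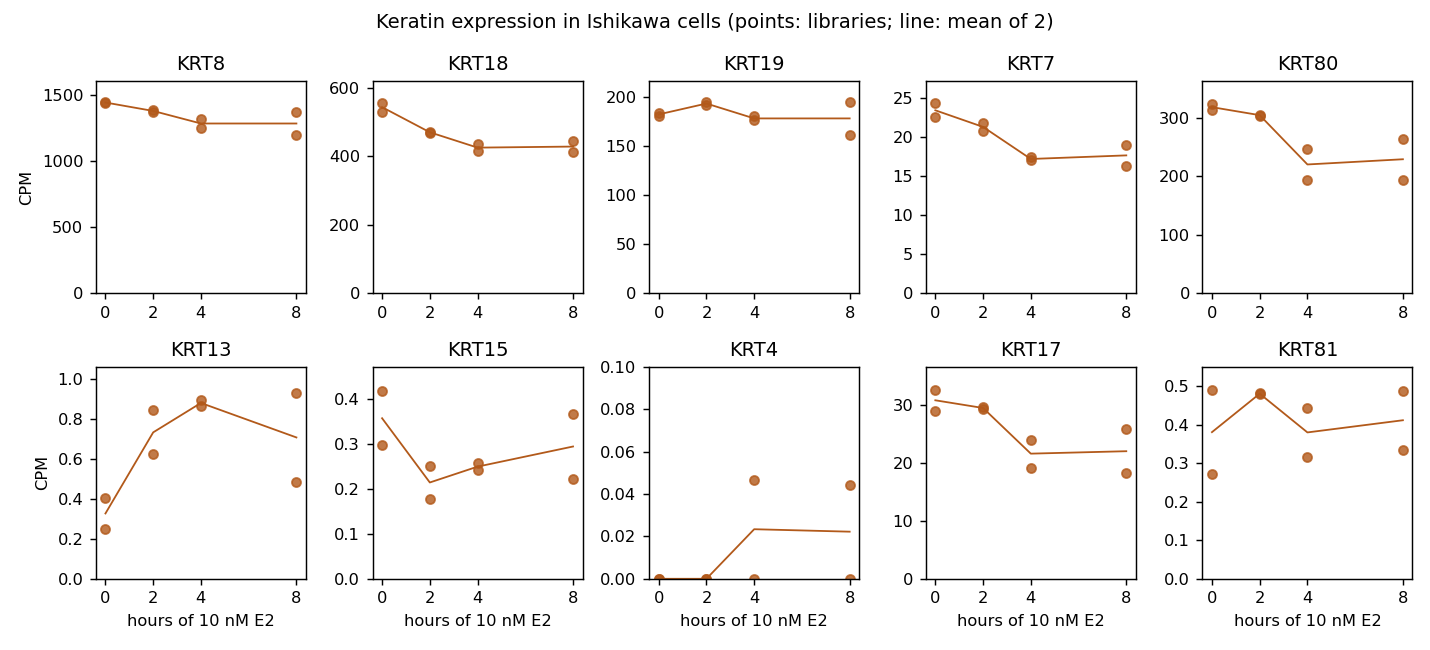
CPM of the 10 keratins in Ishikawa cells against hours of 10 nM E2, with 1 point per library and a line through the mean of 2; each panel has its own axis from 0. KRT18, KRT7, KRT80 and KRT17 lie lower at 4 h and 8 h than at 0 h, KRT80 and KRT17 show a wide gap between late replicates (194 and 246 CPM of KRT80 at 4 h), and KRT4 holds at most 2 counts.

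The response to E2 differed between the lines for 5 keratins at each time point. The difference was tested as the T-47D response minus the Ishikawa response in 1 fit of all 16 libraries, and with the 4 h and 8 h libraries of each line as 1 group, 5 were called. KRT8, KRT13, KRT15, KRT18 and KRT19 were called at 2, 4 and 8 h, each with a more positive response in T-47D cells, where 2.67%, 6.03% and 10% of all genes tested were called in either direction. KRT18 was opposite in direction, with a log2 difference in response of 0.77 at 4 h (standard error 0.06, adjusted p = 1.04e-07). KRT8 differed by 0.74 at 8 h (standard error 0.07, adjusted p = 4.11e-07), though its own change in Ishikawa cells did not pass. KRT15 differed by 2.25 at 2 h (standard error 0.43, adjusted p = 0.00350), on at most 22 counts per Ishikawa library, and without Ishikawa 0 h replicate 2 it was called at no time point (adjusted p = 0.0883, 0.106 and 0.207 at 2, 4 and 8 h). The difference for KRT19 was 0.35, 0.38 and 0.29 (standard error 0.09 at each), and it was lost in 7 of the 16 fits without 1 library at 2 h and in 10 of 16 at 8 h.

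KRT7 and KRT80, which fell in both lines, were not called for a difference at any time point. At 8 h the log2 difference was -0.25 for KRT7 (standard error 0.10, adjusted p = 0.107) and -0.05 for KRT80 (standard error 0.14, adjusted p = 0.932), and a p that misses the threshold does not show that the lines respond alike. DESeq2 called the KRT7 difference at 8 h (adjusted p = 0.0353). KRT17 fell in Ishikawa cells and passed at no time point in T-47D cells, and its difference in response was 0.69 at 4 h (standard error 0.29, adjusted p = 0.199) and 0.34 at 8 h (standard error 0.31, adjusted p = 0.573), which did not pass. No fold is given for KRT4, because Ishikawa cells held no count of it at 0 h.

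**Figure D4:**
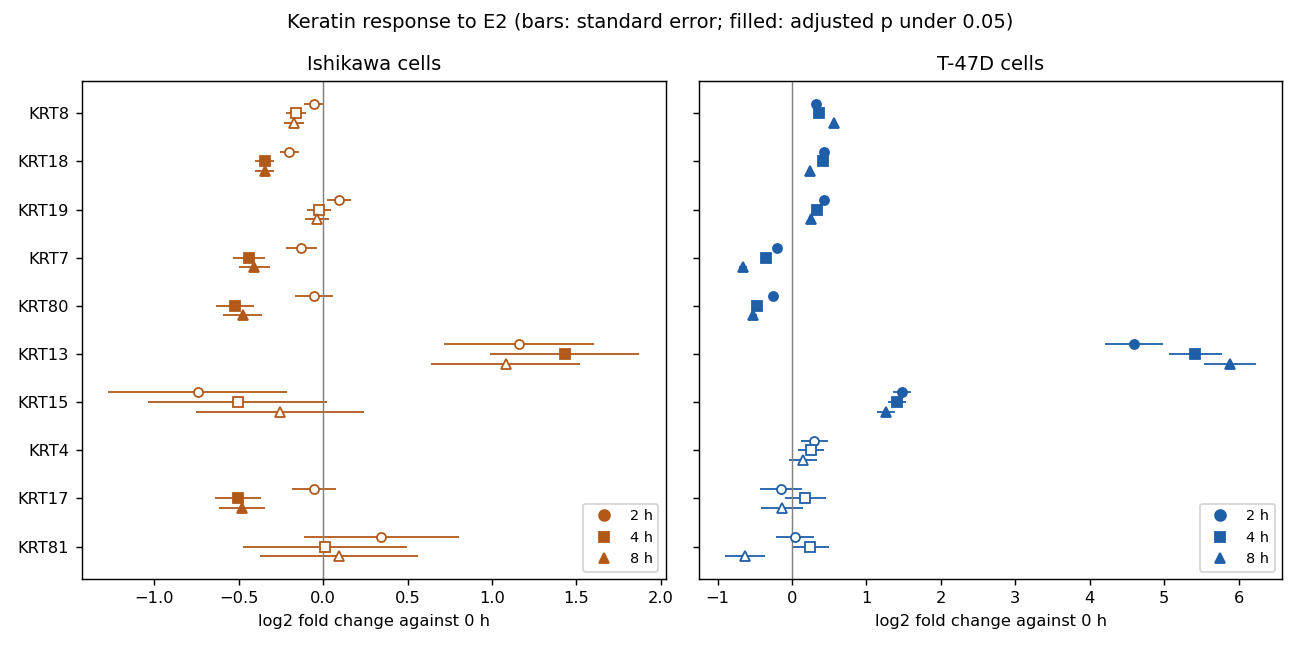
log2 fold change of each keratin against 0 h in Ishikawa (left) and T-47D (right) cells at 2 h (circles), 4 h (squares) and 8 h (triangles), with standard errors as bars and filled symbols for an adjusted p under 0.05; the panels have different horizontal scales. Filled symbols for KRT8, KRT18 and KRT19 lie right of 0 only in the T-47D panel, those for KRT7 and KRT80 lie left of 0 in both panels, and KRT4 is not drawn for Ishikawa cells.

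The per-length levels were summed by keratin type, since the types pair in the filament. In Ishikawa cells the type II members summed to 288 and 290 CPM per kb at 0 h and the type I members to 260 and 271, a ratio of 1.11 and 1.07. The ratio was between 1.06 and 1.12 in all 8 Ishikawa libraries, while both sums were lower at 4 h and 8 h than at 0 h. In T-47D cells the type II members summed to 733 and 705 CPM per kb and the type I members to 1948 and 1865 at 0 h, a ratio of 0.377 and 0.378. The T-47D ratio was 0.335 and 0.318 after 2 h, 0.351 and 0.339 after 4 h, and 0.406 and 0.420 after 8 h, below the 0 h values in the 2 h and 4 h libraries and above them in the 8 h libraries. With the longest transcript as the length, the mean ratio at 0 h was 1.47 in Ishikawa and 0.519 in T-47D cells, so the value depends on the length used while the order of the lines did not. KRT8, KRT18 and KRT19 made up 83.5% to 87.6% of the summed per-length level in Ishikawa libraries and 93.9% to 96.7% in T-47D libraries. KRT19 stood at 0.436 to 0.577 of the KRT18 level in Ishikawa cells and at 3.16 to 3.39 times the KRT18 level in T-47D cells.

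**Figure D5:**
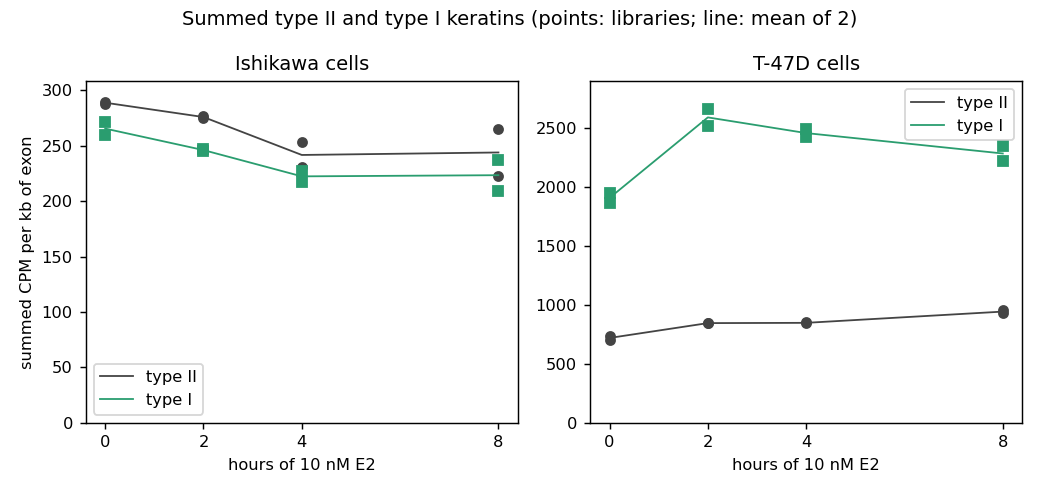
Summed CPM per kb of exon of the type II (circles) and type I (squares) keratins against hours of E2 in Ishikawa and T-47D cells, with 1 point per library and a line through the mean of 2; the vertical axes start at 0 and differ between panels. The sums lie close together in Ishikawa cells (288 and 260 in 0 h replicate 1), whereas type I exceeds type II at every time point in T-47D cells (1948 against 733 in 0 h replicate 1).

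Of the 44 other keratin genes, 8 passed the filter on low counts for Ishikawa and 11 for T-47D cells, and 4 were called at any time point against 0 h. At 8 h, 1 of the 11 rose and 2 fell in T-47D cells, near the shares of 15.4% and 14.3% among all genes, and in Ishikawa cells 1 of the 8 fell, near 10.1%. KRT5, the type II keratin of basal cells, was 41.3 and 44.4 CPM without E2 in Ishikawa cells, 22.7 and 35.6 after 4 h, and 34.6 and 25.1 after 8 h, and it fell by 0.55 at 4 h (standard error 0.16) and by 0.52 at 8 h (standard error 0.16) on the log2 scale. The lower of its late libraries were the same as for KRT17 and KRT80, and T-47D cells held at most 6 counts of it per library. KRT23, a type I keratin, was 223 and 208 CPM without E2 in T-47D cells and fell by 0.16, 0.29 and 0.14 at 2, 4 and 8 h (standard errors 0.04 or 0.05). KRT86, the hair keratin that overlaps KRT81, was 9.19 and 9.40 CPM without E2 and 6.64 and 6.39 after 8 h in T-47D cells, and it fell by 0.51 (standard error 0.11, adjusted p = 0.00130). KRT81 and KRT86 thus both had lower values at 8 h, though KRT81 did not pass. Reads of KRT86 may not be separable from those of KRT81 or of KRT7. KRT7, which overlaps KRT86 on the same strand, fell by 0.66 at 8 h in T-47D cells. KRT32, a hair keratin, had 2 and 3 counts at 0 h and 17 and 14 after 8 h in T-47D cells (log2 fold change 2.36, standard error 0.73, adjusted p = 0.0202).

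Plakins, desmosomes and hemidesmosomes anchor keratin filaments to the cell surface. Of 21 such genes, 17 were tested in T-47D cells, of which 1 rose and 10 fell at 8 h (median log2 fold change -0.19, against 0 over all genes), where 15.4% of all genes were called higher and 14.3% lower. DSP, the plakin that ties keratins to desmosomes, fell by 0.35 (standard error 0.03), JUP, the plaque protein plakoglobin, by 0.40 (standard error 0.04) and PPL, periplakin, by 0.45 (standard error 0.05). In Ishikawa cells 18 were tested, of which 1 rose and 8 fell at 8 h (median -0.23, against -0.01), where 12% of all genes were called higher and 10.1% lower. These shares of all genes at 8 h are the background for the gene lists that follow. PPL fell by 0.62 (standard error 0.09), ITGB4, the hemidesmosome integrin chain, by 0.67 (standard error 0.09) and PKP1, a desmosomal plaque protein, by 0.78 (standard error 0.23). PKP1 was 14.5 and 14.1 CPM at 0 h and 10.7 and 5.93 CPM at 8 h, so its late replicates stood far apart.

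Of 18 genes of simple epithelium (adhesion and surface proteins and related regulators), all tested, 15 fell at 8 h in T-47D cells and the other 3 were not called (median -0.25, against 0 over all genes), beside 14.3% of all genes called lower. The largest changes were those of PRSS8, a membrane protease (-0.84, standard error 0.05), CLDN3, a tight junction claudin (-0.57, standard error 0.04), and CDH3, P-cadherin (-0.53, standard error 0.05). In Ishikawa cells 3 rose and 5 fell at 8 h (median -0.05, against -0.01), beside 12% of all genes called higher and 10.1% lower. MUC1, a mucin, fell by 0.61 (standard error 0.18) and ESRP2, a splicing factor of epithelial cells, by 0.56 (standard error 0.10).

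Among 20 transcription factors of epithelium, 2 rose and 6 fell of 17 tested at 8 h in T-47D cells, and 2 rose and 4 fell of 16 tested in Ishikawa cells. Among all genes 15.4% rose and 14.3% fell in T-47D cells, and 12% and 10.1% in Ishikawa cells, so the counts of those that rose were near the background. ELF3, a factor of epithelial differentiation, rose by 0.47 (standard error 0.10) in Ishikawa cells and fell by 0.81 (standard error 0.06) in T-47D cells. KLF4 rose by 0.71 (standard error 0.16) and TP63, the regulator of basal keratins, fell by 0.40 (standard error 0.14) in Ishikawa cells, where TP63 was 8.28 and 7.40 CPM at 0 h. SOX9 fell by 0.85 (standard error 0.10) and GRHL3 by 0.57 (standard error 0.09) in T-47D cells. Of 29 cornified envelope and stratification genes, 12 were tested in T-47D and 8 in Ishikawa cells, and in each line 2 were called at 8 h, both lower, beside 14.3% and 10.1% of all genes called lower. EMP1, a membrane protein, fell in both lines, by 1.47 (standard error 0.14) in T-47D and 0.63 (standard error 0.15) in Ishikawa cells. S100A8 fell by 0.46 (standard error 0.16) in T-47D and SCEL, sciellin, by 0.63 (standard error 0.20) in Ishikawa cells.

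Of 13 other intermediate filament genes, 1 rose and 2 fell at 8 h in each line, of 8 tested in T-47D and 11 in Ishikawa cells, counts near those that the shares of all genes called at 8 h give. LMNA, the gene of the nuclear lamins A and C, fell in both lines, by 0.30 (standard error 0.04) in T-47D and 0.33 (standard error 0.06) in Ishikawa cells. LMNB1, lamin B1, rose by 0.23 (standard error 0.04) and BFSP1 fell by 0.37 (standard error 0.09) in T-47D cells. NES, nestin, fell by 0.62 (standard error 0.13) and INA, internexin, rose by 0.31 (standard error 0.06) in Ishikawa cells. At 2 h in Ishikawa cells, where 2.61% of all genes were called higher and 1.74% lower, 1 of 18 anchoring genes fell, 3 of 18 simple epithelial genes rose and 1 fell, and 3 of 16 transcription factors rose and 3 fell. At 2 h in T-47D cells, where the shares were 4.9% and 4.4%, 7 of 17 anchoring genes and 7 of 18 simple epithelial genes fell and none rose, and 3 of 17 transcription factors rose and 6 fell.

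Genes with the time course most like 1 keratin per line were sought, the one with the largest absolute log2 fold change among those called at 8 h, by the root mean square difference of the log2 fold changes at 2, 4 and 8 h. For KRT13 in T-47D cells, the nearest of 13019 genes was GATA4 (difference 0.725), with log2 fold changes of 5.07, 4.54 and 5.13, followed by LINC01016 (0.773), KCNK5 (0.963), TGM2 (1.52) and CXCL12 (1.58). Of these, CXCL12 was the gene whose fitted log2 fold change, like that of KRT13, was larger at each later time point (3.12, 3.78 and 4.27). For KRT17 in Ishikawa cells, the nearest of 13176 genes were LMO7 (0.014), ANKAR (0.019), LPAR5 (0.020), AFF1 (0.023) and HSD3B7 (0.027). These differences are smaller than the standard errors of the KRT17 fold changes (0.133, 0.136 and 0.134 at 2, 4 and 8 h), so the order of the genes is not resolved. KRT17 itself was chosen with a log2 fold change of -0.482 at 8 h, next to -0.477 for KRT80. LMO7 had log2 fold changes of -0.05, -0.48 and -0.48 beside -0.05, -0.50 and -0.48 for KRT17, and both measures come from the same 8 libraries.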

How the data were processed

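From directional poly(A) libraries, the authors made alignments to hg19 (HISAT2, SAMtools) and counted reads over UCSC Known Genes (featureCounts). They deposited these counts unnormalized, in 1 table per line. Versions, strand setting and the treatment of reads with several alignments are not given in the sources used here.

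Tests were run on these counts with edgeR 4.0.16 in R 4.3.3. The filter was filterByExpr and the scaling TMM, and each line was fitted over its 8 libraries with time as a factor. The quasi-likelihood F-test was used with an adjusted p (Benjamini-Hochberg over all genes tested) under 0.05. Differences between lines came from 1 fit of 16 libraries, which also set the CPM scale. A standard error is the absolute log2 fold change over the root of F. The biological coefficient of variation was estimated at 6.45% (Ishikawa) and 5.02% (T-47D). Positions and exon lengths came from GENCODE on GRCh37, and promoters from RefSeq on GRCh38.p14. The script was tested on simulated data.

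The 10 keratins and the gene lists were chosen with earlier results of these data known. Every keratin is reported, with other keratins that were called, up to 3 called genes per list at 8 h averaging 50 counts or more, and the 5 genes nearest in time course. A gene that this rule selects is not reported here. Alternatives were DESeq2 1.42.0, RLE scaling, omitting the filter, requiring 10 counts in each library, thresholds of 0.01 and 0.1, a replicate block, only the time points compared, the 4 h and 8 h libraries as 1 group, and leaving out each library. The comparison of 8 h with 2 h was added after seeing the data. No replicate pair held identical values (chi-square per gene 3.60 to 10.8).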

Additional observations from a re-analysis of the deposited data

Results flagged for a closer look

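The responses of 5 keratins differed between the lines by the test of the difference itself (T-47D response minus Ishikawa response, edgeR's quasi-likelihood test over 16 libraries). KRT8 differed on the log2 scale by 0.40, 0.54 and 0.74 at 2, 4 and 8 h, and KRT18 by 0.65, 0.77 and 0.59. KRT13 differed by 3.46, 4.00 and 4.81, on 3 and 2 counts at 0 h in T-47D cells. KRT15 differed by 2.25, 1.93 and 1.50, calls that were lost without Ishikawa 0 h replicate 2. KRT19 differed by 0.35, 0.38 and 0.29, the smallest of these differences, and at 8 h this call was lost under RLE scaling (adjusted p = 0.0563) and with only the libraries compared (adjusted p = 0.133). Groups of 2 libraries are too small to test a single library as an outlier.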

How the results depend on the processing

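Each group had 2 libraries, so single libraries could decide calls: with 1 left out, 1 to 6 keratins were called at 4 h and at 8 h in Ishikawa cells, against 6 to 7 at 2 h and 7 at 4 h and 8 h in T-47D cells. Depth limits the keratins with few counts (KRT4, KRT13, KRT15 and KRT81 in Ishikawa cells, KRT17, KRT81 and the 0 h level of KRT13 in T-47D cells). Over 1976 log2 fold changes under the alternatives, 1870 kept their direction and their side of the threshold, 54 lost and 29 gained a call, and 23 changed sign, none of them that of a called keratin. In Ishikawa cells at 2 h, the count of 0 called keratins became 1 (KRT18) with an adjusted p under 0.1, with DESeq2, without a filter and with only the libraries compared, and lay between 0 and 1 with a library left out. At 4 h the count of 5 became 3 with an adjusted p under 0.01. The line difference lay between 3 and 5 keratins at 2 h and at 8 h with a library left out, and was 3 at 8 h with an adjusted p under 0.01. The type II to type I ratio at 0 h was 1.47 in Ishikawa and 0.519 in T-47D cells with the longest transcript, against 1.09 and 0.377, by construction of the lengths.

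Sign changes were in values that passed no test, and their cause was not tested. With a library left out, the log2 fold change of KRT17 lay between -0.14 and 0.04 (Ishikawa 2 h), -0.17 and 0.03 (line difference at 2 h) and -0.12 and 0.12 (T-47D 8 h against 2 h). That of KRT81 lay between -0.01 and 0.82, -0.35 and 0.49, and -0.26 and 0.57 (Ishikawa 2, 4 and 8 h), -0.21 and 0.27 (T-47D 2 h), -0.80 and 0.07, and -0.25 and 0.61 (line difference at 2 and 4 h). At 8 h in Ishikawa cells, KRT15 lay between -0.68 and 0.02 and KRT19 between -0.17 and 0.08. The line difference of KRT80 lay between -0.11 and 0.25 at 4 h and between -0.28 and 0.16 at 8 h, and KRT4 in T-47D 8 h against 2 h between -0.37 and 0.08. With the 4 h and 8 h libraries as 1 group, KRT81 was -0.12 (T-47D 4 h) and -0.16 (line difference at 4 h), KRT17 was 0.03 (T-47D 8 h), KRT7 was -0.06 (line difference at 4 h) and KRT80 was 0.01 (line difference at 8 h).

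Replicates with the same number showed no clear pairing: their deviations from the group means correlated with r from -0.207 to 0.0602 for Ishikawa and from -0.0661 to 0.11 for T-47D (6 pairs each). This check takes the labels as given, and it cannot exclude that replicates with the same number were handled together. With a replicate block, the count at 4 h in Ishikawa cells was 4 against 5, since KRT13 had an adjusted p of 0.0545, and the counts of the other comparisons were the same.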
